A study of Rattus norvegicus with 39 samples.

Results

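The aryl hydrocarbon receptor and CYP1 genes are 6 genes, Cyp1a1, Cyp1a2, Cyp1b1, Ahr, Arnt and Tiparp, among the 14217 genes measured in rat liver. They were taken by symbol from the annotation of the array's probe sets, with synonyms allowed, and 8 of 31099 probe sets carried 1 of these symbols. Ahr and Tiparp had 2 probe sets each and the other members 1 each, and of 2 the brighter by mean was used for the gene. RNA came from the left lateral liver lobe of rats 5 to 6 weeks old, and 39 Affymetrix rat expression arrays, 1 per rat, were hybridized 48 h after treatment. ANIT (alpha-naphthylisothiocyanate) was given at 125 mg/kg by mouth in corn oil, Caerulein at 50 µg/kg by intraperitoneal injection in saline, and DMN (dimethylnitrosamine) at 15 mg/kg by mouth in water. DNP (2,4-dinitrophenol) was given at 15 mg/kg by mouth in water, NMF (N-methylformamide) at 1000 mg/kg by intraperitoneal injection in saline, and Roziglitazone, as the labels spell it, at 1000 mg/kg by mouth in methylcellulose. Each compound group held 5 rats. The control group held 9 untreated rats that received no vehicle, so each comparison with control takes compound, vehicle and route together.

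AHR is a receptor of the cytosol that binds planar aromatic molecules, moves to the nucleus and pairs there with ARNT. The pair binds DNA at sites with the core GCGTG and switches on genes of xenobiotic metabolism, of which Cyp1a1, Cyp1a2 and Cyp1b1 are the classical ones. TIPARP and AHRR are induced by the same route and limit it. In liver, Cyp1a2 is expressed without an inducer, mainly in hepatocytes around the central vein, whereas Cyp1a1 is low until an inducer is present.

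The promoters of 5 of the 6 members were found in RefSeq (build GRCr8), each covering 250 bases before and 50 bases after the start of the gene. Those of Cyp1a2, Cyp1b1 and Tiparp are shown because their genes stand for 3 kinds of result: Cyp1a2 fell, Cyp1b1 passed no test although it is a classical target, and Tiparp is the feedback gene. They lie at chr8:66978100-66978399 on the minus strand, chr6:21094315-21094614 on the plus strand and chr2:152063519-152063818 on the plus strand. Capitals mark the core GCGTG, or CACGC where the core lies on the other strand.
Cyp1a2: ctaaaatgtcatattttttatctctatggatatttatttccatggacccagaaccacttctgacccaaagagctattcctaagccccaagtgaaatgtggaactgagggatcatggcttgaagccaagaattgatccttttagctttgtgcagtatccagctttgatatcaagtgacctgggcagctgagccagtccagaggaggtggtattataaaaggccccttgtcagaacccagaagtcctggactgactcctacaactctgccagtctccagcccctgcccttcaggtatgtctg
Cyp1b1: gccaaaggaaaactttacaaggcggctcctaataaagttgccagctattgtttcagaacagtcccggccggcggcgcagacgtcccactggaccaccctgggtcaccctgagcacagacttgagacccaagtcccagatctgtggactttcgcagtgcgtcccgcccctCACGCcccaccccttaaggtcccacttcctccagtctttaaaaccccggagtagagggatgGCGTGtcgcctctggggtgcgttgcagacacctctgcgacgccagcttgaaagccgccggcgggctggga
Tiparp: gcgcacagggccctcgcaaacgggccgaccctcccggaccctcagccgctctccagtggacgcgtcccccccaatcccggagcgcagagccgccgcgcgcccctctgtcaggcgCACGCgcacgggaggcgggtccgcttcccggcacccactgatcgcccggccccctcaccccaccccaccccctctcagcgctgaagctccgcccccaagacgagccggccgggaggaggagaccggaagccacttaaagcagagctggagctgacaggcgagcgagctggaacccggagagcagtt

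The Cyp1a2 window held no core on either strand, and sites outside these windows were not searched. The Cyp1b1 window held 2, the one on the gene's own strand 20 to 16 bases before the start and lying within the longer form TNGCGTG, and the other 81 to 77 bases before the start on the opposite strand. The Tiparp window held 1, 136 to 132 bases before the start on the opposite strand. The Arnt window held 1 and the Ahr window held none. Among 33465 rat promoters of the same length, 29.7% held GCGTG and 4.89% held TNGCGTG on either strand. Cyp1a1 was not matched. It lies on chromosome 8 beside Cyp1a2, with 0 genes between them in the rat gene table.

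Values are log2 of the deposited probe set intensities, and the number of arrays limits their precision. Differences were tested with limma on all 39 arrays, the p-values were adjusted over all 14217 genes by the Benjamini-Hochberg method, and genes with an adjusted p under 0.05 are those called. The 8 measured hepatocyte markers, albumin and transthyretin among them, each averaged at least 13.0 over the 39 arrays. The labels do not say more about the animals than 1 array per rat, so p-values measure the spread between these arrays. Mean intensity per array was 348 to 363 before the log, and pairs of arrays correlated at 0.855 to 0.992 over genes. Probe sets for bacterial spike-in RNA averaged 3.49 to 4.70 in 26 of 27 cases, which gives the level of background.

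Arrays that stand apart touch these genes directly. For each array the difference from the mean of all others was set against the same difference of each group mean, and its correlation over genes was highest for the array's own group in 15 of 39 cases. The array labelled ANIT 3 correlated at 0.301 with its own group and at 0.705 with DMN. The array labelled Roziglitazone 2 correlated at -0.303 with its own group and at 0.802 with ANIT. The array labelled DMN 2 correlated at 0.003 with its own group, and its highest correlation was only 0.120, with Roziglitazone. These 3 were named with earlier results of these data known and not by a cutoff on this correlation, under which 4 arrays were lower with their own group than DMN 2: Roziglitazone 2, Roziglitazone 1 (-0.221), control 5 (-0.086) and DNP 1 (-0.061). Each array was also left out by itself. Results are given with all arrays, and many of them also without these 3 doubted arrays. A further 6 arrays (DMN 3, DNP 1, NMF 3, Roziglitazone 1, control 4 and control 5) were at 6.34 to 7.42 in the GAPDH 5′ control probe set, against 10.49 to 12.93 in the other 33. Of these, control 5 (8.09), DNP 1 (9.99) and Roziglitazone 1 (10.84) were also low in the GAPDH 3′ probe set. DMN 3 (12.94), NMF 3 (12.78) and control 4 (13.06) were not.

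In the comparisons of the 6 compounds with control, 3 of 36 member tests passed: Cyp1a1 was higher in ANIT, and Cyp1a2 was lower in NMF and in DMN. At an unadjusted p under 0.05 there were 4. ANIT changed 1 of 6 members, where 16.5% of all genes were called, DMN 1 of 6, where 10.4% were called, and NMF 1 of 6, where 7.48% were called. In Caerulein, DNP and Roziglitazone limma called 0 of 6 members, 0 of them at an unadjusted p under 0.05 either, and over all genes the share called was 0.0% in Caerulein, 0.0% in DNP and 0.0% in Roziglitazone. With 6 genes, shares of this size cannot be set apart from the background.

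**Figure D1:**
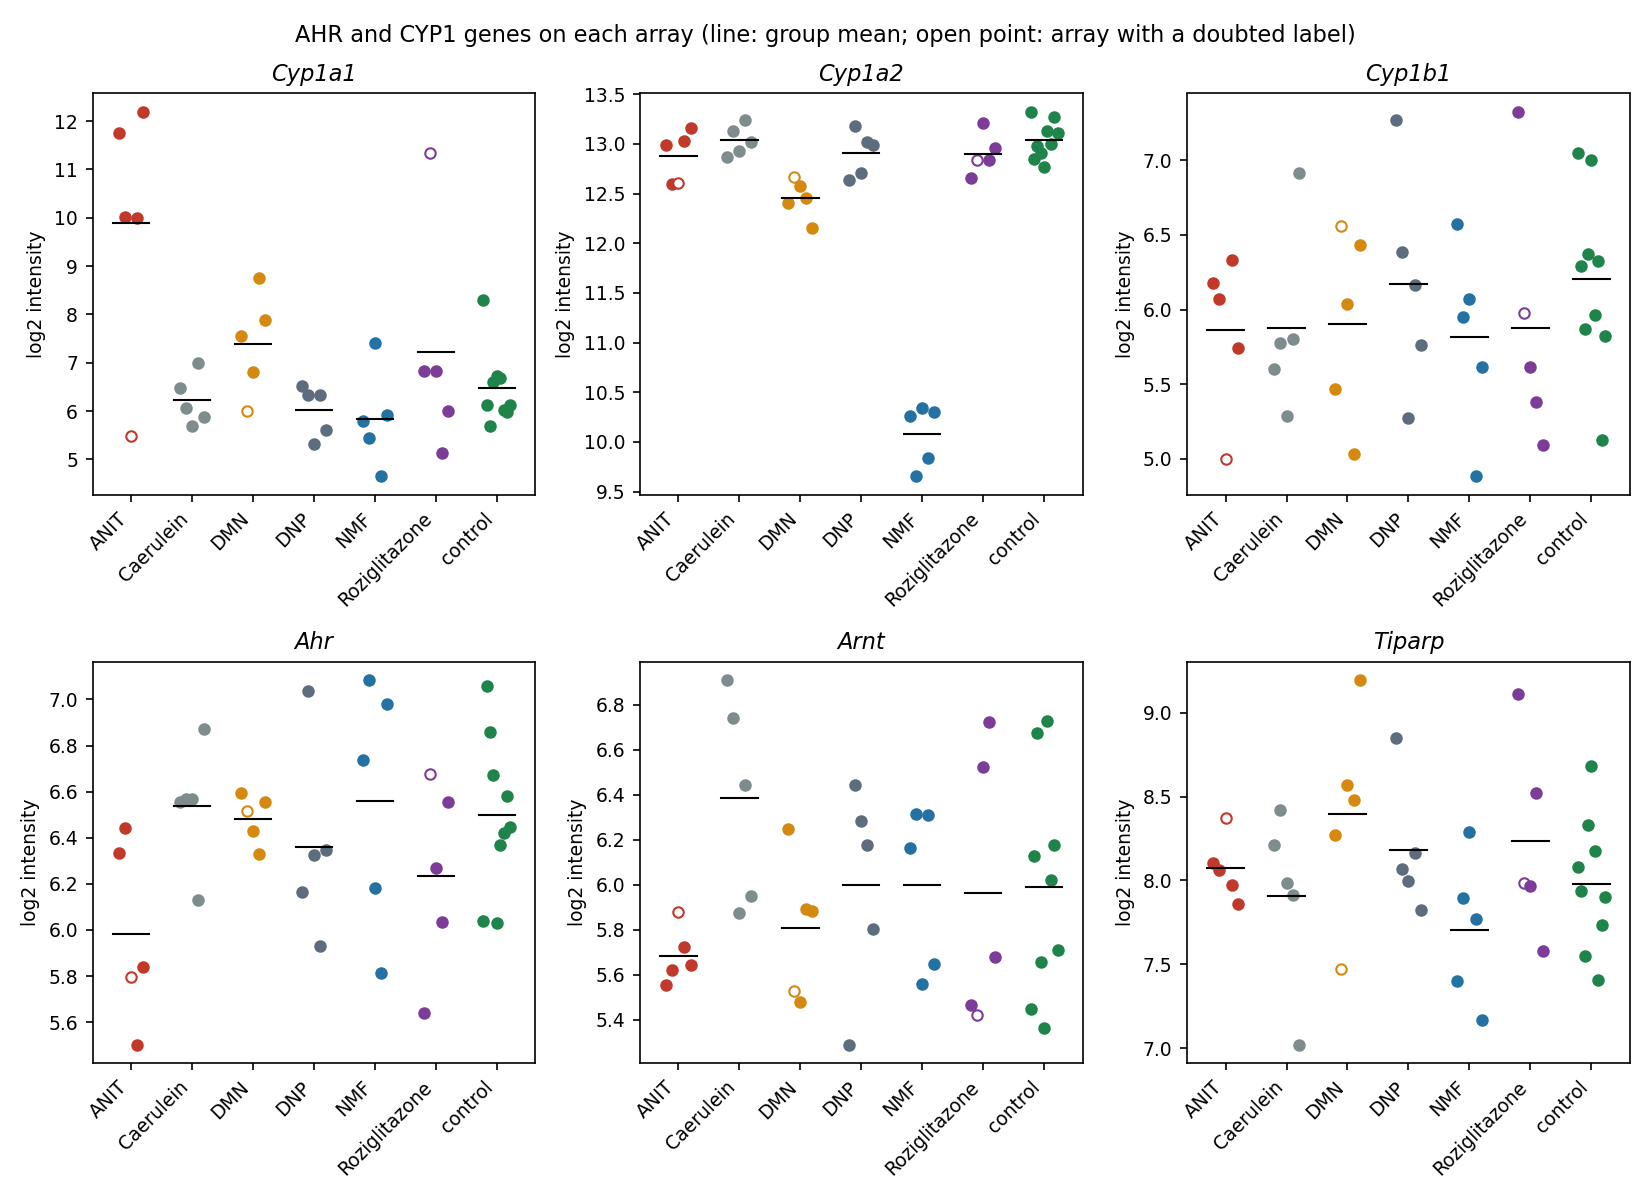
log2 intensity of the 6 genes on each of the 39 arrays, with the 6 compound groups followed by control. Each point is 1 array, the line is the group mean, and open points are the arrays labelled ANIT 3, DMN 2 and Roziglitazone 2. Cyp1a1 is high on 4 of 5 ANIT arrays and 1 Roziglitazone array, and Cyp1a2 is lowest on all 5 NMF arrays, while the other 4 genes overlap among groups.

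CYP1A1 is the inducible monooxygenase of the family and the gene most used as a readout of the receptor. Cyp1a1 was at 11.76, 10.03, 5.48, 9.996 and 12.19 on the 5 ANIT arrays, against a lowest value of 5.69, a median of 6.13 and a highest value of 8.30 on the 9 control arrays. On 4 ANIT arrays it lay above every control array, and on the array labelled ANIT 3 below every control array. The mean was 9.89 ± 2.66 (SD, n = 5) in ANIT and 6.47 ± 0.77 (SD, n = 9) in control, a 10.68-fold difference (log2 fold change 3.42 ± 0.75 SE, limma adjusted p = 0.00163). Without the 3 doubted arrays it was 22.95-fold (4.52 ± 0.45, adjusted p = 4.01e-09).

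The other compounds gave no call for Cyp1a1. DMN arrays were at 7.55, 6.00, 6.80, 8.75 and 7.88, the lowest being the array labelled DMN 2 and the highest the only one above every control array. The log2 fold change in DMN was 0.92 ± 0.75 (adjusted p = 0.504), and 1.27 ± 0.45 (adjusted p = 0.0577) without the 3 doubted arrays. NMF arrays were at 5.79, 5.44, 7.41, 4.65 and 5.91, all within or below the control range. Roziglitazone arrays were at 6.84, 11.33, 6.83, 5.14 and 6.00, and the single high value is that of the array labelled Roziglitazone 2. The fold change in Roziglitazone was 0.75 (adjusted p = 0.8385) with that array and -0.27 without the 3 doubted ones, so its direction rested on 1 array. Caerulein arrays were at 6.48, 6.06, 5.70, 6.997 and 5.88, and DNP arrays at 6.53, 6.32, 5.33, 6.34 and 5.60. These last 2 groups lay within or just below the control range.

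By group mean, ANIT had the most Cyp1a1 (9.89), followed by DMN (7.39), Roziglitazone (7.23), control (6.47), Caerulein (6.22), DNP (6.02) and NMF (5.84). Each group's mean ± SD overlapped that of its neighbour in this order. Between compounds, Cyp1a1 was 16.59-fold higher in ANIT than in NMF (4.05 ± 0.85, adjusted p = 0.00234), and 35.64-fold (5.16 ± 0.51, adjusted p = 8.05e-09) without the 3 doubted arrays. In DMN against NMF it was 1.56 ± 0.85 (adjusted p = 0.426), and 1.90 ± 0.51 (adjusted p = 0.0134) without them. Between ANIT and DMN the difference of 2.497 ± 0.85 missed the threshold (adjusted p = 0.105), and without the 3 doubted arrays it was 3.25 ± 0.53 (adjusted p = 7.76e-05). Between DMN and DNP, both given in water by mouth, it was 1.37 ± 0.85 (adjusted p = 0.364), and 1.72 ± 0.51 (adjusted p = 0.0227) without those arrays. Between NMF and Caerulein, both injected in saline, it was -0.38 ± 0.85 (adjusted p = 0.881).

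CYP1A2 is the constitutive member in liver and oxidizes caffeine and aromatic amines. Cyp1a2 was at 10.26, 9.65, 10.35, 9.84 and 10.30 on the NMF arrays, against a lowest value of 12.77, a median of 12.999 and a highest of 13.32 in control. Every NMF array lay below every array of the other groups. The mean was 10.08 ± 0.31 (SD, n = 5) in NMF and 13.04 ± 0.19 (SD, n = 9) in control, a 7.76-fold fall (-2.96 ± 0.13, limma adjusted p = 7.28e-19). Left out one at a time, no array moved this fold change outside -3.02 to -2.85.

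Cyp1a2 also fell in DMN, by less. DMN arrays were at 12.40, 12.66, 12.58, 12.46 and 12.15, all 5 below every control array, and the array labelled DMN 2 was the highest of them. The fold change was -0.59 ± 0.13, or 1.50-fold lower (adjusted p = 0.0031), and -0.64 ± 0.14 (adjusted p = 0.00171) without the 3 doubted arrays. ANIT arrays, where Cyp1a1 was up on all but ANIT 3, were at 12.99, 12.60, 12.61, 13.02 and 13.16. Of these, 2 lay below the lowest control array. The ANIT fold change of Cyp1a2 was -0.16 ± 0.13 (adjusted p = 0.42), with a 95% interval from -0.43 to 0.11.

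Caerulein left Cyp1a2 at 12.86 to 13.24 (fold change -0.00 ± 0.13), DNP at 12.64 to 13.18 (-0.13 ± 0.13) and Roziglitazone at 12.66 to 13.21 (-0.14 ± 0.13), and none of these passed the test. From the lowest up, the group means were NMF (10.08), DMN (12.45), ANIT (12.88), Roziglitazone (12.90), DNP (12.91), Caerulein (13.04) and control (13.04). Only NMF had a mean ± SD apart from its neighbour. With the vehicle shared, Cyp1a2 was 7.75-fold lower in NMF than in Caerulein (-2.95 ± 0.15, adjusted p = 5.55e-17). In DMN against DNP it was -0.46 ± 0.15 (adjusted p = 0.0596), and -0.51 ± 0.16 (adjusted p = 0.0331) without the 3 doubted arrays.

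Compared directly, Cyp1a2 was higher in ANIT than in NMF by 2.80 ± 0.15 (adjusted p = 3.60e-16), and in DMN than in NMF by 2.37 ± 0.15 (adjusted p = 8.44e-14). In ANIT against DMN it was 0.43 ± 0.15 (adjusted p = 0.122), and 0.55 ± 0.17 (adjusted p = 0.0382) without the 3 doubted arrays. Counted over members, ANIT against NMF gave 2 of 6 (6.61% of all genes), DMN against NMF 1 of 6 (4.66%), NMF against Caerulein 1 of 6 (5.49%), DMN against DNP 0 of 6 (6.89%) and ANIT against DMN 0 of 6 (2.53%). At an unadjusted p under 0.05 the last 2 comparisons had 1 and 3 members, and 3021 and 2327 of all 14217 genes.

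**Figure D2:**
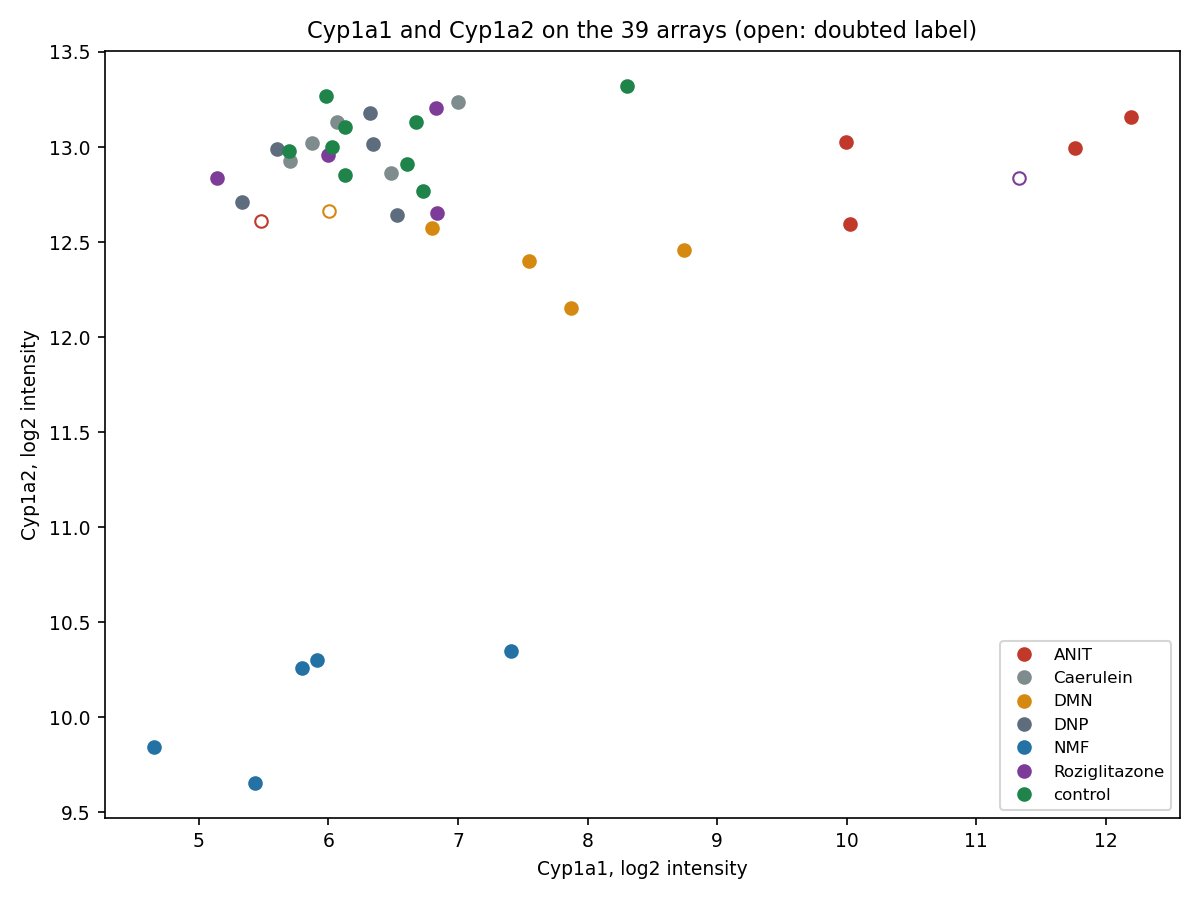
Cyp1a1 (horizontal, log2 intensity) against Cyp1a2 (vertical, log2 intensity) on the 39 arrays, coloured by group with control last in the legend, open points being the arrays labelled ANIT 3, DMN 2 and Roziglitazone 2. NMF arrays stand below all others in Cyp1a2, between 9.65 and 10.35, at Cyp1a1 values of 4.65 to 7.41, and 4 ANIT arrays stand to the right with Cyp1a2 at 12.60 to 13.16.

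Markers of pericentral hepatocytes moved with Cyp1a2 in part. Of 11 measured, 5 were lower in NMF and none higher, 4 were lower in DMN, and 3 in ANIT, where Cyp1a2 was not called. Over all genes, 3.63% were lower and 3.85% higher in NMF, 4.53% lower and 5.87% higher in DMN, and 8.29% lower and 8.19% higher in ANIT. The summed intensity of the 11 was 14061.7 to 17125.0 in NMF, 10160.3 to 27699.8 in DMN and 16762.5 to 22679.1 in ANIT, against 27870.9 to 34896.1 in control. The lowest of the 11 averaged 5.8 over all arrays, above 26 of the 27 spike-in probe sets (up to 4.70) but below the highest (6.47). Without the 3 doubted arrays 8 were lower in DMN, while the counts of lower markers in NMF and ANIT were 5 and 3 again, with 1 marker higher in ANIT. Among all 14217 genes 895 were then lower in DMN, 597 in NMF and 1004 in ANIT. Without the 6 low GAPDH arrays 7 of the 11 were lower in NMF, 6 in DMN and 5 in ANIT. The counts of lower genes among all 14217 were then 595, 536 and 1711, against 516, 644 and 1179 with all arrays. Of 9 periportal markers, 1 was lower in NMF, 1 in DMN, and 4 in ANIT, where 1 was higher. Hepatocyte markers in general overlapped, with a summed intensity of 105796.7 to 112914.5 in NMF and 82524.9 to 117686.3 in control. In DMN 3 of 4 neutrophil markers were higher, 3 of 6 endothelial markers were lower, 3 of 12 stellate cell markers were higher and 1 lower, and 2 of 7 macrophage markers were higher and 1 lower. In NMF 3 of 12 stellate cell markers were lower, and 1 of 7 macrophage markers was higher and 2 lower. Without the 3 doubted arrays, 2 periportal markers were lower in NMF and 2 in DMN. Stellate cell markers in DMN were then 4 higher and 2 lower, and 1 endothelial marker was lower in NMF. Rgn, which encodes regucalcin, fell by 3.14 in NMF (adjusted p = 5.16e-10), and Slc13a3, a dicarboxylate carrier, fell by 3.12 (adjusted p = 5.06e-07). Glul, the glutamine synthetase of the innermost pericentral cells, was at -0.17 in NMF and Cyp2e1 at -0.27, and neither passed the test. The part of cell composition in the Cyp1a2 results was not tested, and in such bulk RNA fewer cells of a type and less RNA per cell cannot be told apart.

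**Figure D3:**
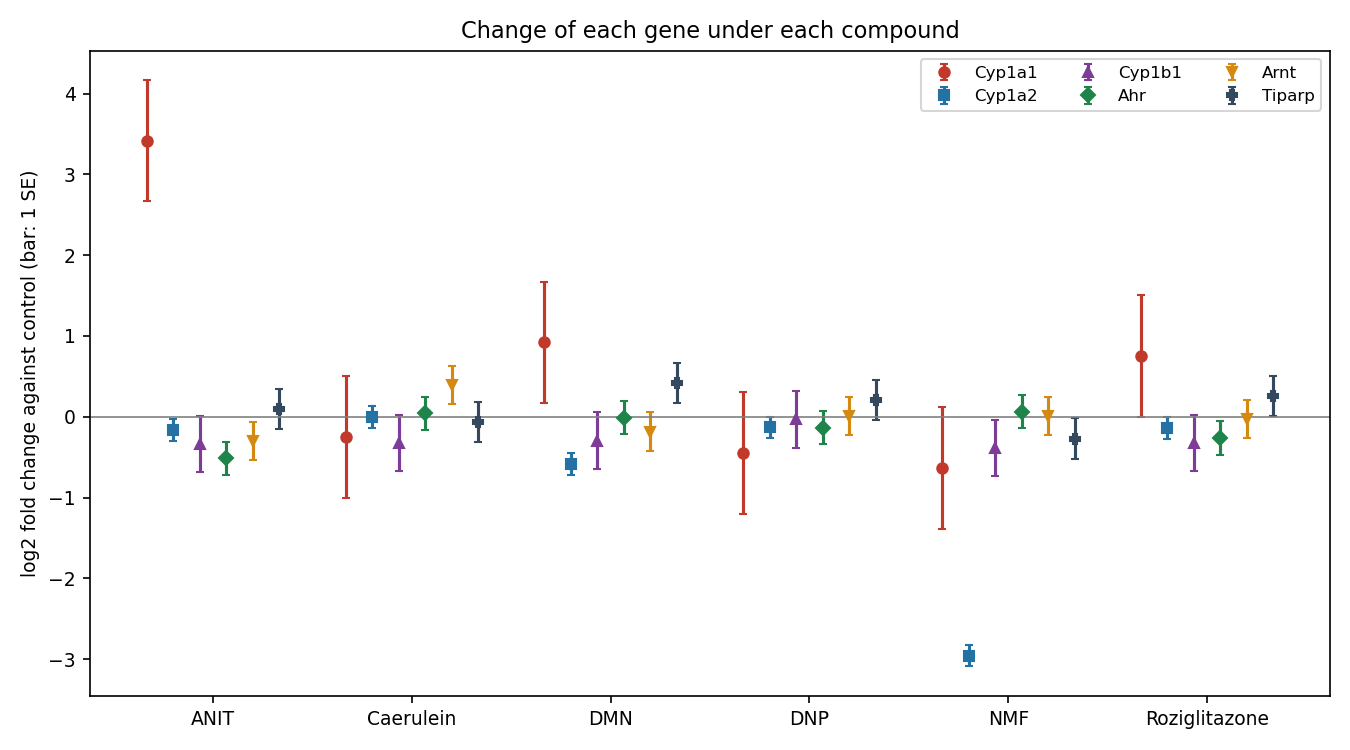
log2 fold change against control of each of the 6 genes in the 6 compound groups, with bars of 1 SE from limma. Cyp1a1 in ANIT (3.42) and Cyp1a2 in NMF (-2.96) stand far from 0, Cyp1a2 in DMN lies at -0.59, and the widest bars are those of Cyp1a1.

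Cyp1b1, the CYP1 enzyme of tissues outside the liver, was called in none of the 6 compounds. Over the 39 arrays it ran from 4.88 to 7.32 with a mean of 5.98, and its group means lay between 5.82 in NMF and 6.20 in control. The fold changes against control ran from -0.38 to -0.03, each with an SE of 0.35, and the lowest adjusted p was 0.527. On the ANIT arrays Cyp1b1 was at 6.18, 6.07, 5.00, 6.33 and 5.74. Cyp1a1 was up on all of these but ANIT 3, where Cyp1b1 was at 5.00. The highest values of Cyp1b1 in Roziglitazone (7.32) and in DNP (7.27) were those of the arrays low in GAPDH 5′ signal. Cyp1b1, Ahr and Arnt averaged 5.98, 6.39 and 5.98 over the 39 arrays. All 3 were among the 30% of genes with the lowest means, so their tests rest on weak signal.

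Ahr encodes the receptor itself. On ANIT arrays Ahr was at 6.33, 6.44, 5.80, 5.501 and 5.84, against a lowest value of 6.03, a median of 6.45 and a highest of 7.06 in control. The groups overlapped, with 3 of 5 ANIT arrays below every control array. The fold change was -0.52 ± 0.21 (adjusted p = 0.0792), and -0.57 (adjusted p = 0.0465) without control 5. In ANIT against NMF it was -0.58 ± 0.23 (adjusted p = 0.128), called with array weights (-0.65, adjusted p = 0.021) and without NMF 4 (-0.76, adjusted p = 0.0366). In the other 5 groups Ahr ran from -0.26 in Roziglitazone to 0.06 in NMF and did not pass. The second Ahr probe set was at -0.31 in ANIT and at -0.81 in DMN, where the first was at -0.01. None of these was called.

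Arnt encodes the partner that AHR needs to bind DNA and that HIF1A uses in hypoxia. It lay at 5.29 to 6.91 over the 39 arrays. Caerulein had the highest mean (6.38 ± 0.46, SD, n = 5) and ANIT the lowest (5.68 ± 0.12, SD, n = 5), against 5.99 ± 0.49 (SD, n = 9) in control. Caerulein arrays lay above the highest control array in 2 of 5 cases. The fold changes were 0.39 in Caerulein and -0.30 in ANIT, and no group was called, the lowest adjusted p being 0.391.

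Tiparp encodes a mono-ADP-ribosyltransferase that modifies AHR and damps its activity. It lay at 7.02 to 9.19 over the 39 arrays. DMN arrays were at 8.27, 7.47, 8.57, 8.48 and 9.19, against a lowest value of 7.41, a median of 7.93 and a highest of 8.68 in control, so the groups overlapped. The fold change was 0.42 ± 0.25 (adjusted p = 0.324). On the ANIT arrays, with Cyp1a1 raised on 4 of them, Tiparp was at 8.10, 8.06, 8.37, 7.97 and 7.86, all within the control range, and its fold change was 0.10 (95% interval -0.41 to 0.60). Between DMN and NMF the difference was 0.69 ± 0.28 (adjusted p = 0.195), and 0.92 (adjusted p = 0.0397) without the 3 doubted arrays. The second Tiparp probe set was at 0.66 in ANIT and -0.12 in DMN, neither called.

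In Tiparp the arrays low in GAPDH 5′ signal stood high. In Roziglitazone (9.11), DNP (8.85) and NMF (8.29) the low array was the highest of its group, and the 2 low control arrays (8.33 and 8.68) were above the other 7, which reached 8.17. In DMN it was at 8.57, below the highest array at 9.19. Arnt ran the other way, with the low array the lowest of its group in DMN (5.48), DNP (5.29) and NMF (5.56), though not in Roziglitazone (5.47, with the lowest at 5.42). Cyp1a1 was highest on the low array in NMF (7.41, the others up to 5.91) and DNP (6.53), but not in DMN, Roziglitazone or control. Cyp1a2 was lowest on the low array in DNP (12.64) and Roziglitazone (12.66), and on a low array in control (12.77). In NMF the low array was instead the highest in Cyp1a2 (10.35), and in DMN it was neither (12.58). The part of RNA quality in these values was not tested.

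Ahrr, whose product competes with AHR for ARNT, was near background at 4.06 to 6.23 over the 39 arrays. Its fold changes ran from -0.33 in NMF to 0.12 in DNP, with no call, and it was at -0.30 in ANIT. Of the complex and its cofactors, 14 of 16 genes were measured, Ahrr among them, and limma called 0 of them in any compound against control. Over all genes, 16.5% were called in ANIT, 10.4% in DMN and 7.48% in NMF. At an unadjusted p under 0.05 there were 4 of the 14 in ANIT, 3 in NMF and 1 in Caerulein. Among all 14217 genes there were 4386, 2790 and 541 at that p in these groups. The median fold change of the 14 was 0.23 in ANIT, where that of all genes was -0.09. Hif1a, another partner of ARNT, was at 0.39 ± 0.25 in ANIT (adjusted p = 0.295) and -0.03 in DMN. Without the 3 doubted arrays Sp1, a promoter-binding factor, was called in ANIT at 0.67. Without the 6 arrays low in GAPDH 5′ signal, 2 were called in ANIT, Sp1 (0.72) and the co-chaperone Ptges3 (0.45). In NMF 3 were then called, Ptges3 (0.51), the chaperone Hsp90ab1 (0.69) and the coactivator Crebbp (-0.49). Calls over all genes were 3632 in ANIT and 1362 in NMF in that setting, against 2344 and 1063 with all arrays.

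Genes outside the CYP1 family that AHR can induce were called in different directions. Of 8 measured (Ugt1a6, Ugt1a7c and Gsta2 were not analysed here), ANIT had 1 lower and 0 higher, where 8.29% and 8.19% of all genes were called. DMN had 2 higher (5.87% of all genes). NMF had 2 higher (3.85%) and 1 lower (3.63%). Nqo1, a quinone reductase that NRF2 also controls, rose 4.50-fold in NMF (2.17 ± 0.29, adjusted p = 1.89e-06) and was at 0.52 in ANIT (adjusted p = 0.214), where Cyp1a1 was up. Ugdh, which supplies UDP-glucuronic acid, rose by 1.22 in NMF (adjusted p = 3.16e-06). In DMN the stress regulator Nfe2l2 rose by 1.19 and the hormone gene Fgf21 by 1.31, and without the 3 doubted arrays Fgf21 was at 1.16 (adjusted p = 0.0513). Without the 6 low GAPDH arrays 2 genes were lower in ANIT (Xdh and Scin, both at -0.58), where 1711 of all 14217 genes were then lower. Aldh3a1, an inducible target of AHR, stayed near background, with group means of 4.26 in ANIT and 4.24 in control. The median fold change was 0.08 in ANIT, -0.12 in DMN and 0.30 in NMF, against -0.09, -0.06 and -0.05 for all genes.

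Of 8 measured partners of P450 enzymes, 2 were higher and 1 lower in ANIT (16.5% of all genes called) and 2 higher in NMF (7.48%). In DMN limma called 0 (10.4%), with 4 at an unadjusted p under 0.05, where 3294 of all 14217 genes were. In DMN 1 partner was lower without the 3 doubted arrays (Cyb5b, -0.72) and 1 without the 6 low GAPDH arrays (Cyb5r3, -0.99). Among all 14217 genes 895 and 536 were lower in these settings. Por, the reductase that passes electrons to all microsomal P450s, rose by 0.50 ± 0.16 in ANIT (adjusted p = 0.0247). Ephx1, which opens epoxides made by CYP1 enzymes, rose by 1.12 in ANIT (adjusted p = 0.0286) and by 1.46 in NMF (adjusted p = 0.00729). Without the 3 doubted arrays Ephx1 in ANIT was at 1.07 (adjusted p = 0.0525). Alas1, the first enzyme of heme synthesis, fell by 0.88 in ANIT (adjusted p = 0.00814).

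P450 genes under other receptors fell where they changed. Of 11 measured, 6 were lower in NMF (3.63% of all genes), 3 in ANIT (8.29%) and 2 in DMN (4.53%), and 0 were higher. The median fold change was -0.96 in NMF, -0.40 in ANIT and -0.57 in DMN, against -0.05, -0.09 and -0.06 for all genes. Cyp7a1, the rate-limiting enzyme of bile acid synthesis, fell by 2.69 in NMF (adjusted p = 0.00917) and was at 0.55 in ANIT (adjusted p = 0.608). Cyp3a2, a steroid and drug hydroxylase, fell by 1.87 in NMF and fell by 1.91 in ANIT, and Cyp8b1, the enzyme that makes cholic acid, fell by 1.47 in NMF. The male-specific Cyp2c11 had a fold change of -1.80 in NMF, -2.70 in ANIT and -2.004 in DMN, and Cyp2j3 of -1.53 in DMN. Without the 3 doubted arrays the lower counts were 6 in NMF, 4 in ANIT and 4 in DMN. Those of all 14217 genes were then 597, 1004 and 895.

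**Figure D4:**
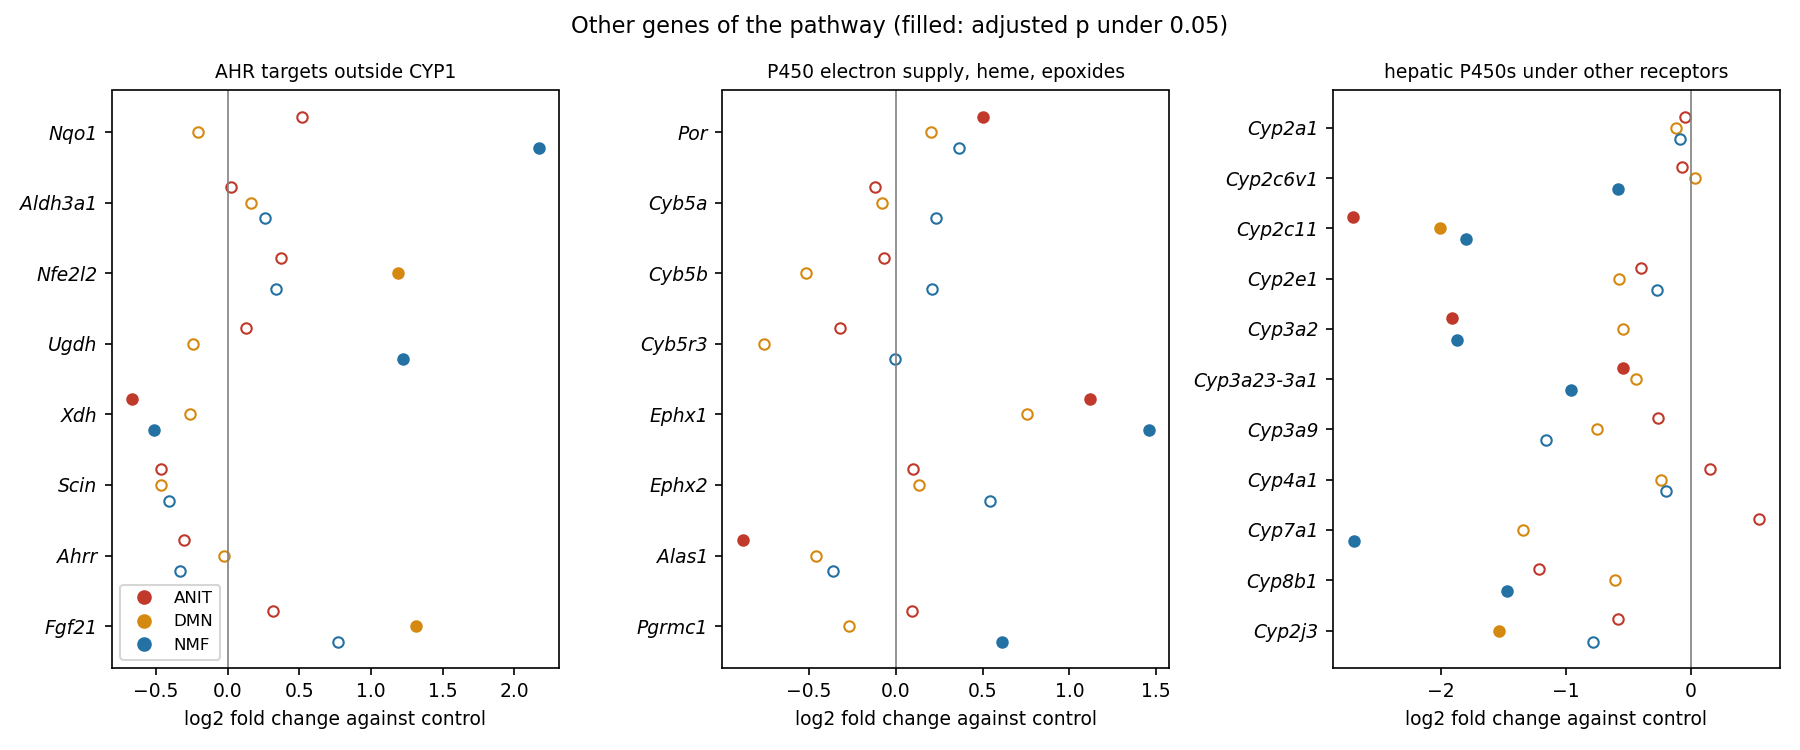
log2 fold change against control of genes around the CYP1 family in ANIT, DMN and NMF, in 3 panels: targets of AHR outside the family, partners of P450 enzymes, and hepatic P450 genes under other receptors. Each point is 1 gene in 1 compound, filled where the adjusted p is under 0.05, and the filled points of the right panel all lie below 0.

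Of 9 measured regulators of xenobiotic and hepatocyte genes, Nr1h4, the bile acid receptor FXR, fell by 1.201 in ANIT (adjusted p = 0.00141) and by 0.87 in NMF (adjusted p = 0.0318). Nr1i3, the receptor CAR, rose by 1.27 in NMF (adjusted p = 0.03). In DMN, where 10.4% of all genes were called, limma called 0 of the 9, with 3 at an unadjusted p under 0.05. Such a p was found for 3294 of all 14217 genes in DMN. Hypoxia targets, which share ARNT with the CYP1 genes, had 5 of 12 higher in DMN (5.87% of all genes), 3 in ANIT (8.19%) and 2 in NMF (3.85%), and 0 lower. Their median fold change was 0.62 in DMN, 0.15 in ANIT and 0.23 in NMF, against -0.06, -0.09 and -0.05 for all genes. Egln3, an oxygen sensor of the pathway, rose by 2.11 in DMN and by 1.93 in ANIT, the glycolytic Aldoa by 1.15 in DMN and 1.06 in ANIT, and the glucose carrier gene Slc2a1 by 1.02 in DMN. Without the 3 doubted arrays, 6 of the 12 hypoxia targets were higher in DMN, where 1075 of all 14217 genes were higher. In ANIT 2 targets were then higher (1266 of all genes) and 1 was lower (1004 of all genes), Ldha (-0.65, adjusted p = 0.0498). Nr1i3 was called in DMN without those arrays (-1.11, adjusted p = 0.0319). Without the 6 arrays low in GAPDH 5′ signal, Nr1h4 was at -0.86 in NMF (adjusted p = 0.0655) and Slc2a1 at 1.05 in DMN (adjusted p = 0.0634). In that setting 4 hypoxia targets were higher in DMN and 1 in NMF, as were 837 and 767 of all 14217 genes. Of the 9 regulators, 2 were then lower in DMN, Onecut1 (-1.75, adjusted p = 0.0468) and Cebpa (-0.80, adjusted p = 0.0302). Onecut1 was also lower in NMF (-2.33, adjusted p = 0.00729). Lower in the same setting were 536 of all 14217 genes in DMN and 595 in NMF. In Caerulein, DNP and Roziglitazone limma called 0 genes of any of these 6 lists, and at most 2 of a list had an unadjusted p under 0.05. Among all 14217 genes 541, 199 and 1044 had such a p in these groups.

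For each member the 3 genes of the most similar profile were found by Pearson's r over the 39 arrays, as a description: the arrays share the treatments, so the points are not independent. Cyp1a1 was closest to the phospholipase gene Pla1a (0.848), Tsx (0.825) and Disp1 (0.809), with 0.978, 0.931 and 0.982 over the 7 group means. Pla1a was at 8.30 to 10.24 in ANIT, against 6.46 to 7.71 in control, and reached 10.06 in Roziglitazone. Cyp1a2 was closest to Rarres2, which encodes chemerin (0.861), to Rgn (0.834) and to the uptake carrier gene Slco1a4 (0.824), with 0.977, 0.912 and 0.973 over group means. Rarres2 was at 11.88 to 12.24 in NMF, against 12.78 to 13.36 in control. Closest to Cyp1b1 were Col11a1 (0.857), Cyp19a1 (0.854) and H4cl1 (0.848), and to Ahr Ccdc115 (0.813), Dnah1 (0.811) and Col15a1 (0.799). Closest to Arnt were Slc30a1 (0.848), Sgpl1 (0.847) and Met (0.844), and to Tiparp Ano6 (0.785), Csgalnact2 (0.769) and Epb41l2 (0.754). Over the group means these ranged from 0.722 to 0.969.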

How the data were processed

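Liver RNA of 39 rats was hybridized to 1 array each. The values deposited by the authors are linear probe set intensities, and the submitters' processing notes name RMA and affy, with no version. RMA usually gives log2 values, and the notes state no step back. Array medians of the deposited values ran from 77.8 to 108.7, and array means from 347.8 to 363.4. The arrays thus do not share a common distribution, which the quantile step of RMA would give. The method behind these values was not established. Since the values are linear, log2 was taken here, with no pseudocount and no further normalization. The genome build is not given in the sources used here. Of 31099 probe sets, 57 are controls, 20826 carry 1 symbol of the platform annotation, 436 several and 9780 none; symbols were updated through the rat gene table for 20758. The probe set with the highest mean stood for each of 14217 genes. limma 3.58.1 in R 4.3.3 fitted 1 mean per group over all arrays, and was tested on simulated data. The members and lists were chosen with earlier results of these data known. Named genes are the members, the 3 most similar genes of each, fixed list genes, and list genes called with an absolute log2 fold change of at least 1. Sp1, Ptges3, Hsp90ab1, Crebbp, Cyb5b, Cyb5r3, Xdh, Scin, Ldha, Onecut1, Cebpa, Glul, Cyp2e1 and Slc13a3 were named after their values were seen. Alternatives were a replicate block, arrays left out, other scalings, array weights, filters, a pseudocount and other probe sets.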

Additional observations from a re-analysis of the deposited data

Results flagged for a closer look

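Among 42 groups of arrays and genes searched, 2 single values lay far from the rest of their group, and chance gives about 1 in 20. Cyp1a1 on the array labelled Roziglitazone 2 was at 11.33, where the next array of the group was at 6.84 (gap over range 0.726, critical value 0.71). Cyp1a1 on control 1 was at 8.30, where the next was at 6.73 (0.601, critical value 0.493). Between compounds, the difference was tested for Cyp1a1 in ANIT against NMF (4.05), and for Cyp1a2 in NMF against Caerulein (-2.95), ANIT against NMF (2.80) and DMN against NMF (2.37), all called with limma.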

How the results depend on the processing

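Each member fold change was refitted under 11 alternative settings and without each of the 39 arrays, giving 3267 fits, counted over 11 comparisons. No call was reversed and none was lost, 25 fits added a call, and in 99 a difference called in neither fit had the other sign. Cyp1a1 in ANIT stayed between 3.20 and 4.52 over the settings (adjusted p 4.01e-09 to 0.0201) and between 2.84 and 4.52 over the arrays left out, Cyp1a2 in NMF between -3.08 and -2.86 and between -3.02 and -2.85, and Cyp1a2 in DMN between -0.68 and -0.49 (adjusted p 6.23e-04 to 0.0474) and between -0.64 and -0.51. Members called in ANIT against control were 1, with 2 without the 6 arrays low in GAPDH 5′ signal (an alternative chosen after seeing the data), 3 with array weights, and 1 to 2 with single arrays left out (2 without control 5). Ahr passed in ANIT without those 6 arrays (adjusted p = 0.0483), with array weights (0.0469) and without control 5 (0.0465), and Arnt with array weights (-0.54, adjusted p = 0.0386). In DMN against DNP the count was 0, with 2 without the 3 doubted arrays, and 1 without the low GAPDH arrays, with quantile normalization, with array weights, with a pseudocount of 16 and with the 30% of genes of lowest mean removed, which left 3 members (Cyp1a1, Cyp1a2 and Tiparp); with single arrays left out it was 0 to 1 (DMN 2 or DNP 1). In ANIT against DMN it was 0, with 2 without the 3 doubted arrays, 1 with array weights and 0 to 2 with single arrays left out (2 without ANIT 3, 1 without Roziglitazone 2). In DMN against NMF it was 1, with 3 and 2 in the same 2 settings and 1 to 2 with single arrays left out (2 without DMN 2), and in ANIT against NMF 2, with 3 with array weights (Ahr) and 2 to 3 with single arrays left out (3 without NMF 4). Over all genes, calls in ANIT against control were 2344, with 3632 without the low GAPDH arrays and 4839 with array weights. In DMN against DNP they were 980, with 1578 without the 3 doubted arrays, 2622 with array weights and 809 without the low GAPDH arrays. In ANIT against DMN they were 359, with 1116 without the 3 doubted arrays and 1769 with array weights. In DMN against NMF they were 662, 1028 and 1859, in that order. In ANIT against NMF weights raised them from 940 to 2934. The cause was not tested. Centring each array on its median put the median fold change of all genes in ANIT at 0.04 in place of -0.09 and changed no count of members called. A replicate block changed no count of members called: Cyp1a1 in ANIT was at 3.20 (adjusted p = 0.0201), Cyp1a2 in NMF at -2.88 and in DMN at -0.52 (adjusted p = 0.0474). The numbers were not taken to pair the arrays, since in none of the comparisons did all 5 same-numbered pairs correlate above 0.1. In ANIT against control, NMF against Caerulein and DMN against NMF 4 of 5 did, and in DMN against control 0 of 5. The highest correlation of a pair was 0.66, in DMN against NMF.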
